A study of Gallus gallus with 2 samples.

Results

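Chicken chromosome 14, a microchromosome, held 576 of the 27188 CTCF peaks in the 2 deposited lists, 168 of the 5830 peaks at 5 days and 408 of the 21358 at 10 days. The members are the rows of both lists whose sequence name is exactly chr14, and no row of either list carried a chromosome 14 random name. Chromatin bound by CTCF had been recovered with an antibody from Gallus gallus blood cells labelled RBC 5d and RBC 10d, aged 5 and 10 days, and sequenced on an Illumina Genome Analyzer. There was 1 library per age and no replicate. The labels name no strain, genotype or input library, and do not state whether age runs from incubation or from hatching, and how many birds went into each preparation. The cell type field says red blood cell, whereas the growth and treatment fields of both samples describe mononuclear cells (PBMCs) from a density gradient, cultured and stimulated with PMA and Io, so the cells of either library are known only as far as these labels go. A peak list holds no expression values, and the labelled cell type could not be checked against markers.

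CTCF, a protein with many zinc fingers, recognises a long, well conserved DNA motif. It is known for blocking enhancers at insulators and for anchoring chromatin loops together with cohesin. Chicken red cells keep their nucleus and have long served for such work, and an insulator bound by CTCF was dissected at the chicken beta globin locus. Chromosome 14 carries the alpha globin cluster, in which HBZ encodes the embryonic alpha-like chain and HBAD and HBA1 encode the adult alpha-like chains of haemoglobin. On the chicken assembly GRCg7b, the RefSeq gene table lists NPRL3, which encodes a regulator of mTORC1 signalling, on one side of these globin genes and TMEM8A on the other. CTCF sites upstream of the chicken alpha globin genes have been described by others. The genome build of the peak lists is not given in the sources used here, so the globin genes were not placed among the peaks, and all positions below are those of the files, with the first base counted as 1. No sequence is printed, because no genome of the files' build was at hand.

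The first comparison asks which chromosome 14 sites were listed at both ages. By count, most of the 5 day peaks recurred in the later list, whereas most of the 10 day peaks stood without a 5 day partner. Peaks that met one of the other age over at least 1 bp are called shared, and the rest unmatched. At 5 days 97 of the 168 peaks were shared, which is 57.7% (exact Clopper-Pearson 95% interval 49.9 to 65.3), beside 57.6% over all sequences. At 10 days 98 of the 408 peaks were shared, which is 24.0% (19.95 to 28.5), beside 15.8% over all sequences. By count, neither majority held when the 10 day list was cut. With the 10 day list cut to its highest scoring peaks, as many as the 5 day list holds, sharing came to 43.5% at 5 days (35.8 to 51.3) and 57.1% at 10 days (48.0 to 65.9). Removing possible partners can only lower the 5 day share. The cut also dropped low scoring 10 day peaks, which were seldom shared, so list length and score are not told apart. Shares with the cut list were not computed over all sequences. At full length the 5 day share on chromosome 14 was close to that of the whole list, while the interval of the 10 day share lay above the whole list. The 10 day share was 19.7% on the other microchromosomes (11 to 28) and 11.1% on chromosomes 1 to 5. The 10 day list was 2.43 times as long as the 5 day list on chromosome 14 (exact conditional binomial 95% interval 2.02 to 2.92). It was 3.66 times as long over all sequences, 2.70 times on the other microchromosomes and 5.21 times on chromosomes 1 to 5. In the 10 day share and in this ratio, chromosome 14 was nearer to the other microchromosomes than to the whole list. Its 5 day share was nearer to the whole list, as the other microchromosomes had 53.4%. These intervals, like those that follow, reflect counting error alone, read depth is unknown, and with 1 library per age no test compares the ages.

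The shared sites sat at nearly the same bases in both lists. There were 96 pairs in which each peak was the best overlapping partner of the other. All peaks have one width, so the starts of a pair had to lie less than a peak width apart. The median offset of their starts was 40 bp (interquartile range 20.75 to 63.25), the largest was 262 bp, and 60 pairs were within 50 bp. Neither direction prevailed, with the 10 day start to the right in 46 pairs and to the left in 49, and 1 pair was at the identical position. The 58 pairs that scored at least 30 at 5 days and the 38 that scored less both had a median offset of 40 bp, so position was as close for low as for high scores. In 1 case a pair of 5 day peaks fell on a single 10 day peak, and in 2 cases a pair of 10 day peaks fell on a single 5 day peak.

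The authors' score, a whole number per peak whose meaning is not given in the sources used here, ranks peaks within a list. At 5 days the chromosome 14 scores ran from 13 to 117 with a median of 24 (interquartile range 15 to 41.25), and the whole list had a median of 22 (15 to 38). At 10 days they ran from 22 to 351 with a median of 25 (23 to 30), and the whole list had a median of 25 (23 to 29). Chromosome 14 peaks were therefore of ordinary score in both lists. Shared peaks were the higher scoring ones. The 97 shared peaks of the 5 day list scored a median of 35 (21 to 50), against 16 (14 to 22.5) for the 71 without a partner. In the 10 day list the median was 39.5 (28 to 62) for the 98 shared peaks, against 24 (23 to 27) for the 310 others. The ranges overlapped in both lists, since shared peaks reached down to the lowest score of each.

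At the top of the 10 day list nothing was unmatched. All 39 of the 10 day peaks scoring at least 50 were shared (exact 95% interval 91.0 to 100), beside 95.3% over all sequences, and the highest unmatched 10 day peak scored 44. At 5 days 25 of 27 such peaks were shared, which is 92.6% (75.7 to 99.1), beside 95.1% over all sequences. These shares do not stand apart from the background. When each chromosome 14 list was divided by score into 5 parts, the shared percentage at 10 days was 74.4 in the highest part, 20.7 in the next, and 12.2, 7.41 and 4.94 in the rest. At 5 days the same parts gave 91.2, 76.5, 70.6, 15.2 and 33.3, higher again in the lowest part than in the one above it. Shares by score part were not computed over all sequences, so these differences cannot be called particular to chromosome 14. The 5 day shares fell between the middle part, with scores of 19 to 30, and the next, with scores of 14 to 18. Several borders between parts split tied scores, which were ordered by position. At 5 days these ties were at scores of 45 and 14. At 10 days every border split a tie, at scores of 32, 27, 24 and 23, so the values of neighbouring parts depend partly on that order.

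**Figure D1:**
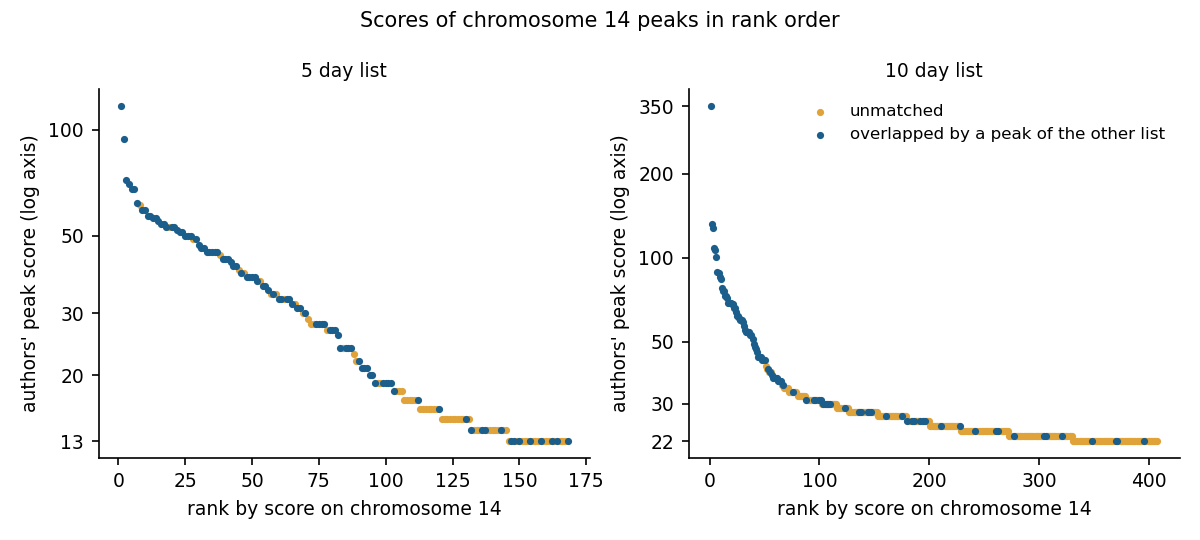
Authors' peak score (log axis) against rank by score on chromosome 14, 168 at 5 days and 408 at 10 days, 1 point per peak. Blue points are overlapped by a peak of the other list and orange points are unmatched, and the 10 day list is wholly blue at scores above 44.

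One site had the highest chromosome 14 score in both lists, by a wide margin at 10 days. The peak at chr14:15053298-15053696 had a 5 day score of 117, the highest of chromosome 14, above 98.6% of the whole 5 day list. Its 10 day partner at chr14:15053350-15053748 scored 351, again the highest, above 99.7% of the whole 10 day list. The next scores were 94 at 5 days and 132 at 10 days. At 10 days this site stood at the right edge of a group of 4 peaks within 5.85 kb, whose other members scored 28, 43 and 28. The peak scoring 43 was shared, with a 5 day score of 28, and the remaining pair was unmatched.

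Below it, the order of the sites differed between the ages. The second highest 5 day site, at chr14:2573939-2574337, scored 94, and its 10 day partner scored 62. The site at chr14:2379431-2379829 scored 72 at 5 days and 107 at 10 days. The site at chr14:9343118-9343516 scored 70 and 89. These last sites and the leading one were the 3 positions among the 8 highest of both lists. The remaining high 5 day sites with a 10 day partner were at chr14:14396782-14397180 (68 at 5 days, 85 at 10 days), chr14:4177734-4178132 (68 and 22) and chr14:4933106-4933504 (62 and 47). The eighth 5 day peak, at chr14:4953593-4953991 with a score of 61, was unmatched.

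The high 10 day sites were all shared, some with modest 5 day scores. The second highest, at chr14:662919-663317, scored 132 at 10 days and 53 at 5 days. The third, at chr14:1058382-1058780, scored 128 at 10 days and 37 at 5 days. No source puts the scores of both ages on one scale, and the lists differ in length, so each score is best read within its own list. The former site scored above 99.0% of peaks at 10 days and 87.3% at 5 days, and the latter above 98.98% and 73.6%. The site at chr14:14728378-14728776 scored 108 at 10 days and 38 at 5 days. The site at chr14:15594591-15594989 scored 101 at 10 days and 21 at 5 days, above 98.2% and 45.0% of the respective lists. The eighth, at chr14:6809128-6809526, scored 88 at 10 days and 43 at 5 days.

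Across the 96 pairs the scores had a Spearman correlation of 0.46, given as a description over sites that share their libraries. Of the 20 pairs with the highest 5 day scores, 7 were among the 20 highest by 10 day score. The sites were thus close in position, while 13 of these 20 ranked lower at 10 days than the 20 highest.

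**Figure D2:**
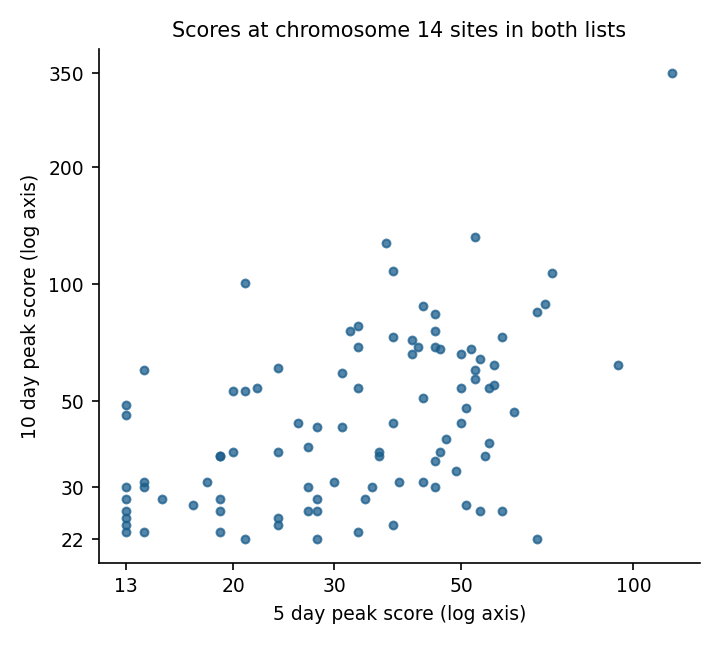
Score at 10 days against score at 5 days (both log axes) for the 96 chromosome 14 sites listed at both ages, 1 point per site. The point at 117 and 351 stands alone at the upper right, and sites with 5 day scores above 50 spread from 22 to 132 in the 10 day list apart from it.

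A run of sites between about bins 17 and 21, each bin being 250 kb, gathered several high 5 day scores whose 10 day counterparts varied. This stretch, from 4000001 to 5250000, was singled out after its values were seen. It held 5 of the 27 peaks that scored at least 50 at 5 days. The peak at chr14:4177734-4178132 scored 68 and its 10 day partner 22, the lowest score in the 10 day list. The peak at chr14:4933106-4933504 scored 62 and its partner 47, above 91.7% and 92.4% of their lists, so it stood about level within both. The peaks at chr14:4953593-4953991 (score 61) and chr14:5025374-5025772 (score 53) were the 2 highest unmatched 5 day peaks of chromosome 14, and no 10 day peak started within 20509 and 92290 bp of them. The peak at chr14:5189072-5189470 scored 59 and its partner 26, above 90.7% and 55.6% of their lists. Some other shared sites of the stretch stood higher within the 10 day list than within the 5 day list. The site at chr14:4529882-4530280 scored 20 at 5 days and 53 at 10 days, above 42.4% and 93.6% of the lists. The site at chr14:4676982-4677380 scored 41 and 66, above 77.8% and 95.5%. The 10 day list had 41 peaks in these 5 bins, with 6 to 9 in each, beside a mean of 6.38 per bin over the chromosome. At 5 days each of the bins held 3 to 5 peaks, beside a mean of 2.625, so the stretch was also rich in 5 day peaks of any score.

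The other unmatched 5 day peaks named by score lay elsewhere. They were at chr14:2596599-2596997 (score 49, with a 10 day start 1699 bp away), chr14:15623581-15623979 (score 44, 20846 bp away) and chr14:6249448-6249846 (score 40, 1249 bp away). Of the 71 unmatched 5 day peaks, 5 had a 10 day start within 1 kb and 31 within 10 kb. The median distance to the nearest 10 day start was 11.6 kb and the largest 204 kb.

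The 310 unmatched 10 day peaks lay farther from the other list. Their scores ran from 22 to 44 with a median of 24, beside a median of 25 over the whole 10 day list. Among them 6 had a 5 day start within 1 kb and 65 within 10 kb. The median distance was 28.99 kb and the largest 1125 kb. Of these peaks, 20 lay in an interval described below that was chosen for having no 5 day peak, as did the farthest. Distances of unmatched peaks were not computed over all sequences at either age, so they cannot be called particular to chromosome 14. The longer 10 day list makes a near neighbour more likely for a 5 day peak than the reverse. The highest were at chr14:4272762-4273160 (score 44), chr14:10424510-10424908 (score 43), chr14:13097581-13097979 (score 41), chr14:3823270-3823668 (score 40) and chr14:5906616-5907014 (score 39). The second of these started 696 bp from a 5 day peak, the next nearest to a 5 day start was the first at 2569 bp, and the fourth was 94636 bp away.

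Peaks were spread unevenly along the chromosome. In 64 bins of 250 kb counted from base 0, with each peak placed by its start, a bin held 0 to 8 peaks at 5 days (median 3) and 0 to 27 at 10 days (median 5). The variance of the bin counts was 1.87 times their mean at 5 days and 3.18 times at 10 days. At 5 days 16 bins were empty, at 10 days 2 were, and the bin from 11750001 to 12000000 was empty at both ages. The 10 day count was higher in 57 bins, equal in 6, and lower in 1, the bin from 8250001 to 8500000 with 1 peak at 5 days and 0 at 10 days.

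Bins rich at one age tended to be rich at the other. The 5 day and 10 day counts had a Spearman correlation of 0.67 over the 64 bins, to which shared peaks contribute at both ages. Counted over unmatched peaks alone it was 0.34. Within the 10 day list, shared and unmatched counts had a correlation of 0.29. These are descriptions over neighbouring bins of the same libraries, which share gaps and mappable length. Of the 10 fullest bins at each age, 4 were in common.

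The fullest 5 day bins were mostly in the middle and at the right end. A first 8, 3 of them shared, fell between 6000001 and 6250000. Another 8, 7 of them shared, fell between 6750001 and 7000000, where 13 were listed at 10 days. At the right end, 8 peaks lay between 15500001 and 15750000, 6 of them shared, with 10 at 10 days. The bin from 13750001 to 14000000 held 7 and the bin from 6500001 to 6750000 held 6, level with 3 further bins. One of those 3, from 8750001 to 9000000, had all 6 peaks shared, with 5 day scores of 42 to 55.

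The fullest 10 day bin stood out by its count. Between 14750001 and 15000000 the 10 day list had 27 peaks, 25 of them unmatched, and the 5 day list 3. The bins next in order were from 7000001 to 7250000 with 14 peaks, and from 5750001 to 6000000, 6750001 to 7000000 and 13250001 to 13500000 with 13 each. In the fullest bin the median score was 24, and its highest score of 84 belonged to a shared site. A run of 14 peaks with neighbouring starts under 10 kb apart filled 73.0 kb of it, at chr14:14838052-14911075, with scores of 22 to 30 and no shared member. No 5 day peak lay in that run. Over all sequences 15.8% of 10 day peaks were shared, so most were unmatched anywhere. The chromosome 14 score parts below the highest had 20.7, 12.2, 7.41 and 4.94% shared at 10 days. The lack of sharing therefore cannot be called particular to this run or its bin. A further 5 unmatched peaks with scores of 22 to 25 followed at chr14:14934483-14950184. Among the 16 other microchromosomes spanning at least 1 Mb, the fullest 10 day bin held from 14 to 35 peaks, and 1, on chromosome 11, exceeded 27. At 5 days the fullest chromosome 14 bin, with 8, was exceeded on 13 of these 16. Without an input library, what part of such a run is background is unknown.

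**Figure D3:**
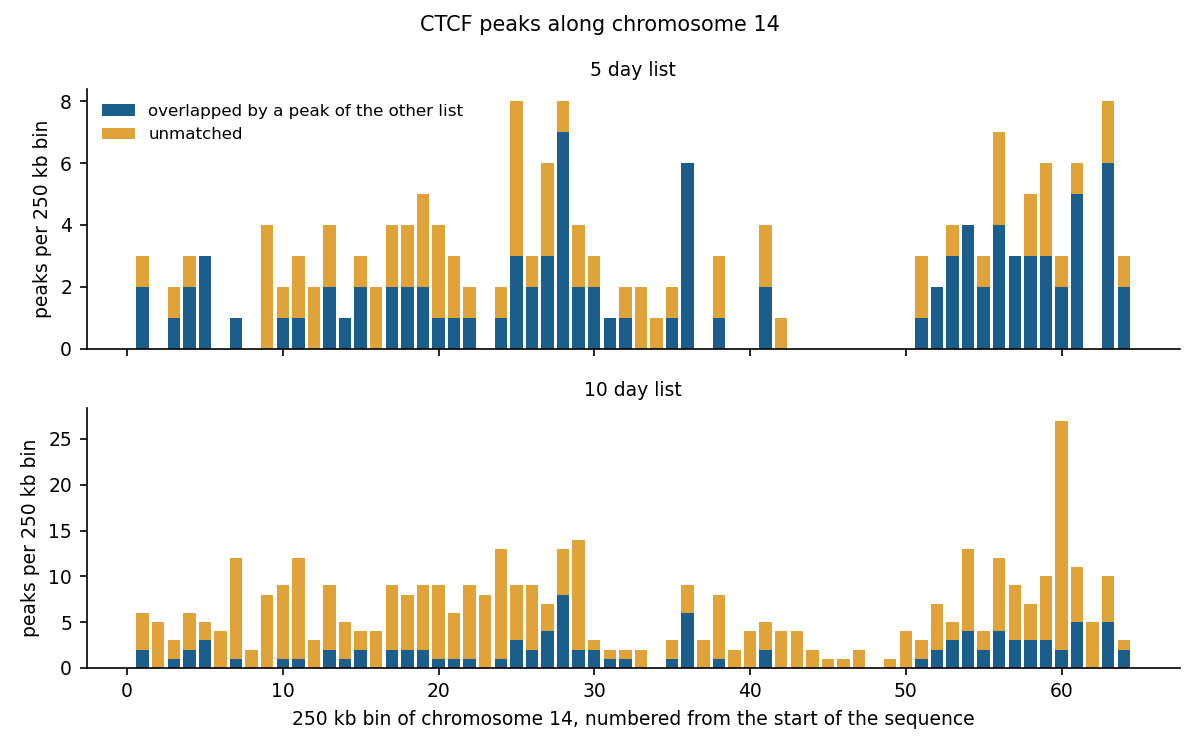
Number of peaks in each of the 64 bins of 250 kb along chromosome 14, for the 5 day list above and the 10 day list below, on different vertical scales. Blue is the part overlapped by a peak of the other list and orange the unmatched part, with an empty run at 5 days from bin 43 to bin 50 and a single tall bin of 27 at 10 days.

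The chromosome fell into 3 stretches around its longest interval without a 5 day peak. The 5 day peaks starting at 10423814 and 12726276 were 2302 kb apart with none between. In the 10 day list that interval held 20 peaks, 8.69 per Mb, with scores of 22 to 43 and a median of 23. None of the 20 could be shared, since the interval was chosen as one without 5 day peaks. The highest of them, scoring 43, was the one 696 bp from the left bordering peak, and the next highest scored 29. The longest 10 day spacing of the chromosome, 482 kb from 11703109 to 12185038, lay inside it, as did the third longest, 350 kb from 10825163 to 11174686. The interval was thus sparse in both lists. Sequence gaps and mappability there were not analysed here.

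To its left and right the density differed. The left stretch, from base 1 to 10424212, held 111 peaks at 5 days (10.6 per Mb) and 264 at 10 days (25.3 per Mb). The right stretch, from 12726276 to 15791481, held 57 at 5 days (18.6 per Mb) and 124 at 10 days (40.5 per Mb). Sharing was higher on the right too, at 70.2% against 51.4% of 5 day peaks and 31.5% against 22.3% of 10 day peaks. Shared 5 day peaks numbered 13.1 per Mb on the right and 5.47 on the left, while unmatched 5 day peaks were about as dense on the right (5.55 per Mb) as on the left (5.18 per Mb). Unmatched 10 day peaks, however, were denser on the right as well, at 27.7 against 19.7 per Mb. The single bin from 14750001 to 15000000 held 25 of the 85 unmatched 10 day peaks on the right. The density without that bin was not computed, so an excess along the whole right stretch is not shown. The median score was 23 on the right and 24 on the left at 5 days, and 27 and 25 at 10 days. Peaks scoring at least 50 were denser on the right at both ages, with 2.94 against 1.73 per Mb at 5 days and 4.89 against 2.30 at 10 days. As the stretches were cut at a gap seen in the data, these values are descriptions without a test.

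Other long spacings of one list held peaks of the other. The second longest at 5 days, 640 kb from 9472161 to 10112480, contained 10 peaks of the 10 day list, and 1 of them, unlike the other 9, overlapped a bordering 5 day peak. The next, 553 kb from 1574563 to 2127501, held 12 unmatched 10 day peaks with scores up to 31. At 10 days the second longest spacing, 441 kb from 8088560 to 8529464, held 3 unmatched 5 day peaks with scores up to 34. The interval of 2302 kb was the longest at 5 days on any microchromosome of at least 1 Mb apart from chromosome 11, which had one of 4758 kb, and the median over the other 16 was 710 kb.

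Neighbouring starts were a median of 44.0 kb apart at 5 days (interquartile range 15.8 to 104) and 20.9 kb at 10 days (7.03 to 48.4). The other microchromosomes had medians of 40.25 and 18.5 kb, and chromosomes 1 to 5 had 101 and 35.4 kb. Spacings under 10 kb made up 15.6% of 167 at 5 days and 33.7% of 407 at 10 days, beside 18.8% and 33.6% on the other microchromosomes. At the short end chromosome 14 was therefore close to its size class at 10 days and somewhat below it at 5 days, without an interval on either. Shared peaks alone had a median spacing of 74.4 kb at 5 days, and unmatched 10 day peaks one of 28.4 kb. Starts under 1 kb apart numbered 4 at 5 days and 17 at 10 days, the closest being 386 and 313 bp apart, less than the width of a peak. They made up 2.40% and 4.18% of spacings, beside 4.01% and 3.98% on the other microchromosomes.

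**Figure D4:**
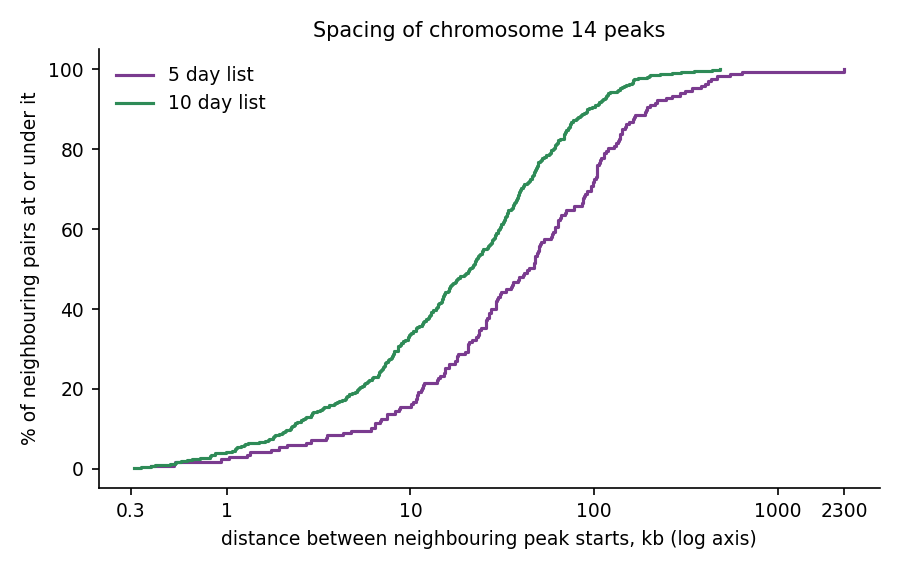
Cumulative percentage of neighbouring peaks on chromosome 14 against the distance between their starts in kb (log axis), with 167 spacings at 5 days and 407 at 10 days. The 10 day curve lies to the left over most of the range, with medians of 20.9 and 44.0 kb, and the 5 day curve ends at 2302 kb.

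The tightest groups differed in how they carried over. Peaks were joined when neighbouring starts were under 10 kb apart. At 5 days 20 of the 168 peaks were in 5 groups of at least 3. At 10 days 118 of the 408 were in 27 such groups, where a longer list on the same span also has closer starts. Groups on other chromosomes were not set beside these, so the counts cannot be called particular to chromosome 14. The largest 5 day group, at chr14:15593562-15600327, had 6 peaks in 6.77 kb, 5 of them shared, with scores of 13 to 33. The 10 day group there, at chr14:15593489-15603133, had 5 peaks, 4 of them shared, with scores of 24 to 101. This group thus scored near the middle of the 5 day list and held the sixth highest 10 day peak of the chromosome.

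A second group found at both ages was at chr14:6801115-6809616, with 4 peaks at 5 days, 3 of them shared, with scores up to 53. At 10 days it was listed at chr14:6805347-6818809 with 5 peaks, 4 of them shared, and scores of 22 to 88. The third 5 day group, at chr14:14728546-14744090, had 4 peaks, 2 of them shared, with scores of 13 to 38. The 10 day group there, at chr14:14728378-14766551, had 7 peaks, 2 of them shared, the highest scoring 108. At 10 days the third named group, at chr14:1560544-1589017, had 6 peaks with scores of 22 to 26, 1 of them shared, level in number with one at chr14:6434354-6454180. The named 10 day groups thus included one around a high shared peak and others of low scores throughout.

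Set among its size class, chromosome 14 was ordinary in density. It spans 15.8 Mb up to its last peak end. It held 10.6 peaks per Mb at 5 days against 10.5 on the other microchromosomes (11 to 28), a ratio of 1.01 (exact conditional binomial 95% interval 0.856 to 1.18). At 10 days it held 25.8 per Mb against 28.5, a ratio of 0.907 (0.818 to 1.004). Split by overlap, the shared 10 day peaks had a ratio of 1.11 (0.888 to 1.36) and the unmatched ones one of 0.858 (0.762 to 0.964). The interval for all 10 day peaks reached just past equality, while that for the unmatched ones lay below it. With spans counted from the first peak start, the ratio for all 10 day peaks was 0.901 (0.812 to 0.997), below equality. Without the interval of 2302 kb, left out after the data were seen, the ratio of all peaks was 1.18 (1.002 to 1.39) at 5 days and 1.01 (0.908 to 1.12) at 10 days. As that interval held no 5 day peaks, leaving it out could only raise the 5 day ratio. It was sparse at 10 days too, so the 10 day ratio also rose by construction. Long gaps of the other microchromosomes were kept. The 5 day range above equality therefore does not show a denser chromosome 14. The split by overlap was not repeated without the interval of 2302 kb, whose 10 day peaks were all unmatched by its choice. Whether a lower 10 day density was confined to unmatched peaks was therefore not settled. By position, the 10 day density was 25.3 per Mb left of that interval, 8.69 inside it and 40.5 to its right. Peaks scoring at least 50 had ratios of 1.03 (0.666 to 1.53) at 5 days and 1.05 (0.733 to 1.46) at 10 days.

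The chromosomes nearest to it in span were 13, 15 and 20, with 7.77, 10.5 and 11.5 peaks per Mb at 5 days. Against these as a pool, the density ratio of chromosome 14 was 1.10 (0.914 to 1.32) at 5 days and 0.911 (0.813 to 1.02) at 10 days, so neither interval left out equality. Shared peaks, counted over the 10 day list, had a ratio of 1.16 (0.907 to 1.47), and unmatched 10 day peaks one of 0.853 (0.749 to 0.969). Against macrochromosomes 1 to 5, the ratio was 3.15 (2.68 to 3.69) at 5 days and 1.47 (1.33 to 1.62) at 10 days. These intervals count peaks, and chromosomes of 1 library are not replicates.

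Of the 17 microchromosomes spanning at least 1 Mb, chromosome 14 ranked 11 by density at 5 days and 14 at 10 days, counted from the densest. Its shared percentage ranked 3 at 5 days, where the chromosomes ran from 47.6 to 62.2%, and 6 at 10 days, where they ran from 14.9 to 29.3%. The other microchromosomes pooled had 53.4% shared at 5 days (51.0 to 55.8) and 19.7% at 10 days (18.55 to 20.9). The interval of chromosome 14 overlapped theirs at both ages, which does not show equal shares. At 10 days its lower end, 19.95%, lay just above their 19.7%. Chromosomes 13, 15 and 20 pooled had 56.2% shared at 5 days (51.45 to 60.9) and 18.9% at 10 days (16.8 to 21.1). Its ratio of 10 day to 5 day peaks, 2.43, ranked 11, in a range from 1.86 to 3.44.

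**Figure D5:**
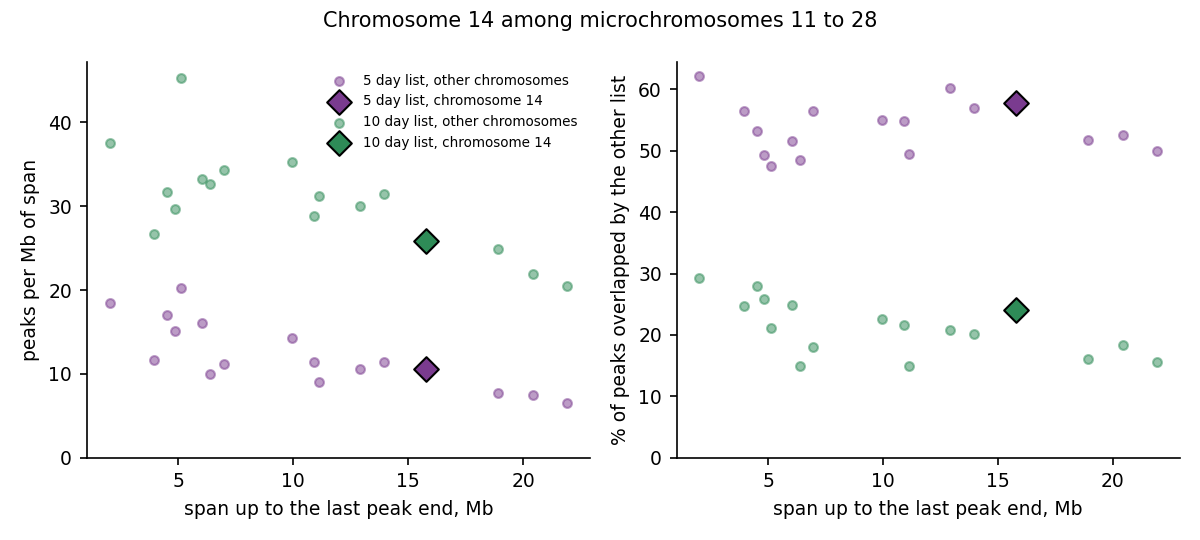
Peaks per Mb (left) and percentage of peaks overlapped by the other list (right) against span in Mb, for the 17 microchromosomes spanning at least 1 Mb, with 5 day values in purple and 10 day values in green. Diamonds mark chromosome 14, at 10.6 and 25.8 peaks per Mb and at 57.7 and 24.0% shared, within the range of the others in all 4 cases.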

How the data were processed

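The authors deposited 1 peak list per library, with 6 columns and no header: sequence name, start, end, a dot, a score and a plus sign. The score is the authors' own whole number per peak, and its meaning is not given in the sources used here. The same holds for the aligner, peak caller, threshold, input library, read totals and genome build. Per the labels' protocols, sonicated chromatin was immunoprecipitated and sequenced. Depth is therefore unknown.

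Groups came from the age field. Rows named chr14 were kept after overlap was computed on the whole lists. For density, a chromosome was taken to run from base 1 to the end of its last peak in either list. Shares have exact Clopper-Pearson and ratios exact conditional binomial 95% intervals, which cover counting error only. There was no test between ages. Named were, per list, the 8 highest peaks, the 5 highest unmatched peaks, the 5 fullest bins, the 3 longest spacings and the 3 largest groups, with ties in order of start. Peaks, bins and limits outside this rule were chosen after values were seen, and members and tests were chosen with earlier results of these data known. Alternatives changed overlap, scores, list length, merging, span and bins. Overlap was tested on simulated lists with a planted number of shared peaks. Merging and ratios were checked on small fixed inputs with known answers. The binning check covered the total count only, which could not differ. Intervals came from scipy 1.17.1, tables from pandas 2.3.3 with numpy 2.4.6, and plots from matplotlib 3.10.9, all under Python 3.11.15.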

Additional observations from a re-analysis of the deposited data

How the results depend on the processing

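Of 37 alternatives to 11 results, 23 stayed within the interval of the main value, within 1.5 times a bin count, or at the same score difference, and 14 moved. With the 10 day list cut to the length of the 5 day list, 43.5% of 5 day and 57.1% of 10 day peaks were shared, against 57.7% and 24.0%. The larger part thus changed at each age by count. The intervals of the cut shares, 35.8 to 51.3 and 48.0 to 65.9, both included 50%, so neither gave a clear majority. The interval of the uncut 5 day share, 49.9 to 65.3, included 50% as well, so that share gave no clear majority either. The median score differences between shared and unmatched peaks were then 23 and 22.5, against 19 and 15.5. With scores at or above the median of each list, the shares were 74.4% and 29.4%. Shares with the cut list and with this score limit were computed for chromosome 14 alone. The median spacings with this score limit were 84.2 and 38.2 kb, where fewer peaks remain by construction. Overlap of 50% of both peaks gave score differences of 20 and 19, and widening by 500 bp gave 17 and 13.5. Left out after the data were seen, the interval without 5 day peaks moved the 10 day density ratio to other microchromosomes to 1.01. That interval was sparse at 10 days too, and gaps of the other microchromosomes were kept, so the ratio rose by construction. Among unmatched 5 day peaks alone, also chosen afterwards, the fullest bin held 5. Bins with a shifted origin held at most 9 peaks at 5 days and 21 at 10 days. Where no construction shows it, the cause was not tested. No paired analysis was possible because there is a single library at either age, which also means that none could be left out. With depth unknown, a site missing from a list may still be bound.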
